A study of Mus musculus with 6 samples.

Results

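The Slc25 family consists mainly of solute carriers of the inner mitochondrial membrane, and its transcripts were compared here between SIRPα KO and WT ILC2s. Members were taken by symbol, as every gene of the count table named Slc25a followed by a number, pseudogenes left out. This gave 39 carriers of 17831 genes, of which 37 passed the filter on low counts. Slc25a27 and Slc25a43 did not pass it. The symbol rule left out members under other names (Ucp2, Mtch1 and Mtch2), which are counted below as related carriers. The family below means the 39 carriers. Lung group 2 innate lymphoid cells (ILC2s), which are tissue lymphocytes that make type 2 cytokines, were sorted and profiled by bulk RNA sequencing. WT mice were labelled CB57BL/6 and SIRPα KO mice SIRPalphatm1Ynliu/J, a targeted mutant of the inhibitory receptor SIRPα, with 3 libraries in each group. Mice of both groups were 6 to 8 weeks old and received 0.5 µg of recombinant mouse IL-33 intranasally for 3 days. ILC2s were sorted on day 4 and kept with rmIL-2 plus rmIL-7 in culture, for 18 h by the study's results text and 24 h by its legend. Since all mice had received IL-33, the comparison concerns activated cells alone, and the mutation was present in every cell of the donor mice rather than in ILC2s alone.

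Most members are small membrane proteins that exchange or import specific solutes, so that the family links metabolism in the cytosol with the mitochondrial matrix. ADP/ATP and phosphate carriers serve oxidative phosphorylation. Aspartate/glutamate carriers belong to the malate-aspartate shuttle, which brings the reducing equivalents of cytosolic NADH into mitochondria. Other members carry amino acids, the precursors of cofactors, iron or glutathione. The proteins are encoded in the nucleus, and those of the inner membrane reach it through the Tom70 receptor and the small Tim chaperones.

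The study drew 3 carriers, Slc25a12, Slc25a13 and Slc25a22, in its plot of mitochondrial respiratory genes. It chose them on these same libraries, so their direction is given as a description and is not independent evidence. Their promoter windows are shown because they are the carriers the study selected, and those of Slc25a16 and Slc25a45 because these 2 genes passed the test below, 1 in each direction. Slc25a32 passed it as well, but no window was available for that gene. Each window runs 5′ to 3′ from 250 bases before to 50 bases after a RefSeq start site in GRCm38.p6, and capitals mark a motif from a fixed list. Slc25a12 is at chr2:71367706-71368005 on the minus strand, Slc25a13 at chr6:6217124-6217423 on the minus strand, and Slc25a22 at chr7:141437825-141438124 on the minus strand, the first of its 3 windows. Slc25a16 is at chr10:62920383-62920682 on the plus strand, and Slc25a45 at chr19:5877572-5877871 on the plus strand.
Slc25a12: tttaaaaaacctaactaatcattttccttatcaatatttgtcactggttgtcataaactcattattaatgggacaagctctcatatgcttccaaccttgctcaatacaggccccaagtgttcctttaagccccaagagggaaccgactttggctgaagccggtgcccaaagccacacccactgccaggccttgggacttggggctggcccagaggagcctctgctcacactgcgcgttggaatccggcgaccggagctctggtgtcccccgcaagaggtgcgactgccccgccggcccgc
Slc25a13: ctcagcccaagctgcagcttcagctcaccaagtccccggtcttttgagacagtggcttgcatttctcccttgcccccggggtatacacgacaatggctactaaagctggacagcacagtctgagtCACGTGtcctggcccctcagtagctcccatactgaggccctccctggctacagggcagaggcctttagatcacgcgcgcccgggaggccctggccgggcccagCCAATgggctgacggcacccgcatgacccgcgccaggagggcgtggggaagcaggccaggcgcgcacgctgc
Slc25a22: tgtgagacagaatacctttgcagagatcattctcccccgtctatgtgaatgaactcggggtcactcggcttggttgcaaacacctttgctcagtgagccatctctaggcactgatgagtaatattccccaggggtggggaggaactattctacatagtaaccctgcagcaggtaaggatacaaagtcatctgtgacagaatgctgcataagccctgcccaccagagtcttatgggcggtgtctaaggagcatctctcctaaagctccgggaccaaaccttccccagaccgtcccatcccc
Slc25a16: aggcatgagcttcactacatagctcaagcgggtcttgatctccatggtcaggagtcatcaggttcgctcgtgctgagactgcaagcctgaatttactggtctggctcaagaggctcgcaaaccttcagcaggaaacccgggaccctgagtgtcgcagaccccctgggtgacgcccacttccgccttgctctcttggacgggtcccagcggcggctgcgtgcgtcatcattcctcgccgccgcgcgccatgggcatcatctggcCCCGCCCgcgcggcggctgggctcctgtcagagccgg
Slc25a45: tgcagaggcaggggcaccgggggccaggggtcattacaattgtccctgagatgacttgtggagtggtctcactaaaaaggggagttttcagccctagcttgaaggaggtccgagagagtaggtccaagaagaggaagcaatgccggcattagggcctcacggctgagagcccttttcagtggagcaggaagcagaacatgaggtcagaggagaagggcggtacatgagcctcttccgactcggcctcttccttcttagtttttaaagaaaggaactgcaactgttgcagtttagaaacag

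The Slc25a13 window held 1 CCAAT box and 1 E-box (CACGTG), and that of Slc25a16 held 1 GC box, read here as its reverse complement. The other 3 windows held none of the letters searched. Over the family, 30 carriers had a window, and only the window farthest 5′ of each gene was searched. The GC box GGGCGGG was present in 18 of 30 (60%), against 34% of 17492 promoter windows of protein-coding genes. That background was not limited to genes expressed in these cells. CCAAT was found in 15 (50%, against 39.2%), the ETS core CCGGAAG in 6 (20%, against 11.9%) and CACGTG in 5 (16.7%, against 7.91%). The NRF1 palindrome and the ATF4 core TGATGCAA were in 0 of 30 windows, against 1.33% and 0.903% of all. Both strands were searched, and a match describes letters only.

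Library totals ranged from 13980499 to 19051507 reads. The markers of ILC2s were all detected, 10 of 10, with a summed level of 4710 to 5868 CPM, the reads of a gene scaled by library size, in WT and 7232 to 7380 in SIRPα KO. Il2ra and Ptprc passed edgeR's test as higher in SIRPα KO and Id2 and Thy1 as lower. Thy1 was at 12.1 to 23 CPM in WT and 3.64 to 4.16 in SIRPα KO. Il2ra was at 1406 to 2064 and 3417 to 3473 CPM, and Id2 at 1129 to 1403 and 782 to 849. The higher sum was thus not shared by all markers. Markers of other cells moved with genotype. B cell markers summed to 31.6 to 38.5 CPM in WT and 14 to 15.8 in SIRPα KO, with 3 of 4 lower by edgeR's test, and natural killer cell markers to 7.42 to 9.67 and 0.383 to 0.682, with 2 of 3 lower. Epithelial markers summed to 44.5 to 60.9 and 5.94 to 66.1 CPM, with 1 of 3 lower. None of the markers of T cells (1.46 to 3.74 and 1.18 to 1.85 CPM), macrophages (39.7 to 126 and 67.6 to 109) or granulocytes and mast cells (7.25 to 32 and 1.12 to 9.40) passed the test. Klrb1c was at 0 in SIRPα KO replicates 1 and 2, Eomes in replicates 2 and 3, and Ms4a1 in replicate 3. Their part in the carrier results was not tested, and in bulk samples fewer cells of a type and less RNA per cell cannot be told apart. Sirpa itself had 149, 96 and 73 reads in WT and 48, 85 and 28 in SIRPα KO (log2 fold change -1.12, edgeR adjusted p = 0.115). The labels code WT replicates 1 and 2 as 37 and 37V1, with 44 and 44V1 for replicates 2 and 3 of SIRPα KO, while the series text speaks of duplicates. WT replicate 3 departed most from the mean of its group over the carriers, with an SD of log2 deviations of 0.444, against 0.192 to 0.338 in the other 5 libraries. Nothing says that the 3 libraries of a group came from separate mice or cultures, so p-values measure the spread between libraries, which may be technical.

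ADP/ATP and phosphate carriers had the highest levels among the 39 carriers. Per kilobase of transcript, the WT level was 1019 ± 63.8 CPM (SD, n = 3) for Slc25a5, the ADP/ATP carrier of proliferating tissues, and 335 ± 51.9 for Slc25a3, the phosphate carrier. Slc25a4, the ADP/ATP carrier of heart and muscle, followed with 231 ± 25 CPM per kilobase. Ucp2, outside the 39 by its name, was near Slc25a4 in WT, at 228 ± 26.9. In SIRPα KO it was above Slc25a4, at 219 ± 13.6 against 182 ± 2.88. Slc25a11, which exchanges oxoglutarate for malate, was at 88.5 ± 7.97, and Slc25a39, a glutathione carrier, at 76.6 ± 12.4. At the other end, Slc25a43 had 0.142 CPM per kilobase in WT. The 6 highest carriers were the same in both groups, and Spearman's rho between the WT and SIRPα KO levels of the 39 carriers was 0.98, over points that share their libraries. In WT, the first 3 were separate from the carrier ranked next in every library, whereas 30 of the 38 neighbouring pairs in the order overlapped.

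**Figure D1:**
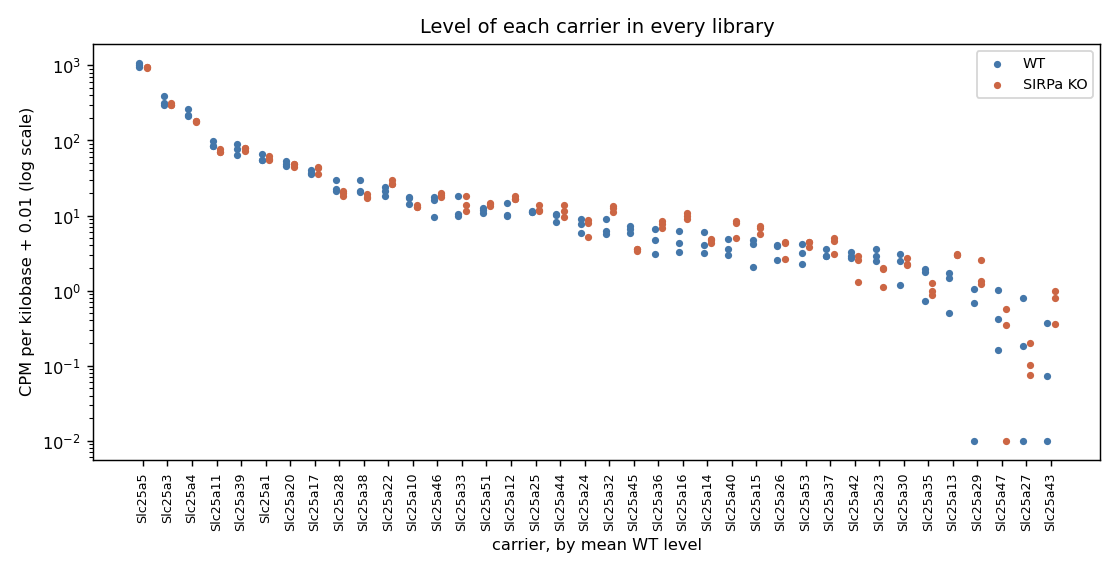
Level of 38 of the 39 carriers in CPM per kilobase of its longest protein-coding transcript (log axis, 0.01 added), 1 point per library, WT in blue and SIRPα KO in orange, ordered by the WT mean. Slc25a5, Slc25a3 and Slc25a4 stand above the others in every library, and carriers drawn at the bottom of the axis had 0 reads in that library.

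The family summed to 3652 ± 180 CPM in the WT libraries and to 3544 ± 12.6 CPM in those of SIRPα KO (SD, n = 3). These sums leave out Ucp2, which was at 911 ± 107 CPM in WT and 875 ± 54.2 in SIRPα KO. Slc25a3, Slc25a4 and Slc25a5 together took 60.4% to 62.8% of the family's reads in the WT libraries and 55.9% to 56.9% in the SIRPα KO libraries. The groups did not overlap in that share. Their longest protein-coding transcripts have 1612, 1925 and 1240 bases, shorter than the family median of 2784, and the log2 fold change followed transcript length, as given below. These sums and shares carry no correction for length. The other 36 carriers summed to 1404 ± 26.8 CPM in WT and 1541 ± 13.9 in SIRPα KO.

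Across the family, 22 of the 37 tested carriers had a higher fitted level in SIRPα KO and 15 a lower one, with a median log2 fold change of 0.10, beside -0.025 over all 13623 genes tested. The test passed 3 carriers (8.11%), 2 higher and 1 lower, at an adjusted p under 0.05. Over all genes the same rule called 11.7%, with 5.94% higher and 5.81% lower, so the share of carriers called was near the background. Groups did not overlap for 12 carriers that were higher and 7 that were lower (51.4%), beside 42.8% of all genes, 21.6% higher and 21.2% lower. An unadjusted p under 0.05 was reached by 12 carriers, beside 32% of all genes. DESeq2 called 6 carriers higher and 2 lower (22.2% of the 36 with an adjusted p), beside 25.1% of the genes to which it gave an adjusted p.

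**Figure D2:**
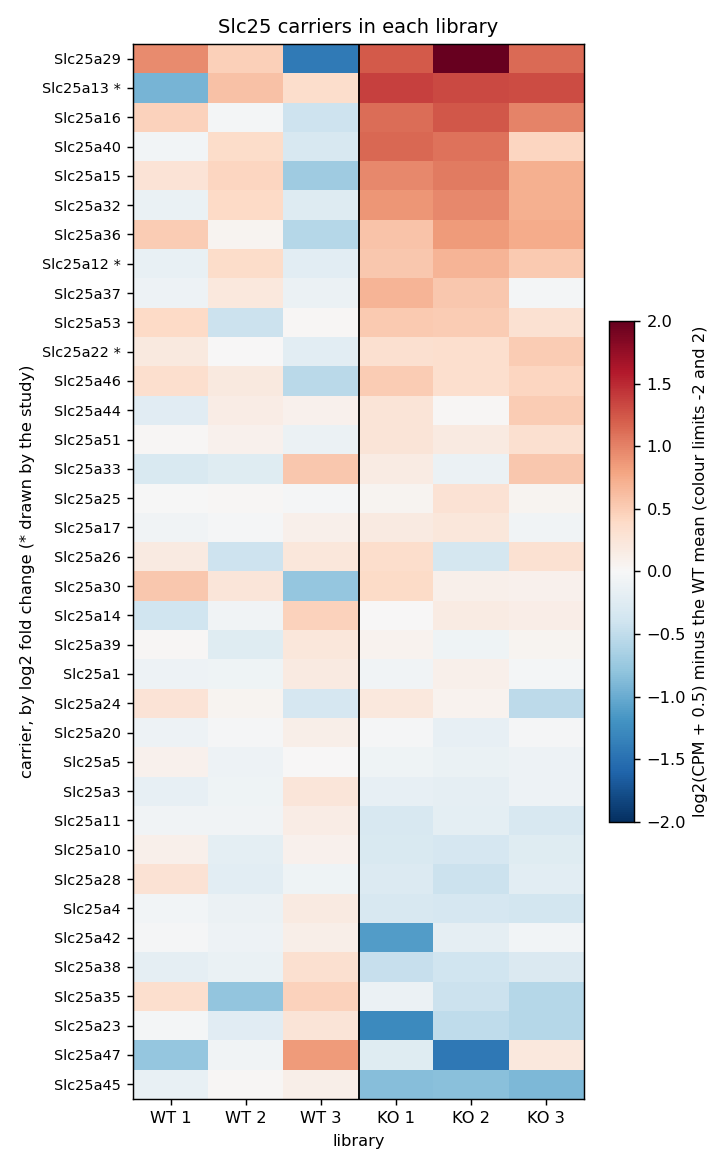
Heat map of 36 of the 37 tested carriers (rows, ordered by log2 fold change, asterisks mark the 3 drawn by the study) in the 6 libraries (columns), as log2(CPM + 0.5) minus the mean of the WT libraries, with colours limited to -2 and 2. Red marks levels above the WT mean; Slc25a13 and Slc25a16 are red in every SIRPα KO library and Slc25a45 is blue in all 3.

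The aspartate and glutamate carriers were the 3 that the study drew, and they are the whole of that group among the genes analysed here. Slc25a12, the aspartate/glutamate carrier known as aralar (chr2:71271063-71367749), was at 65.2, 93.5 and 63.0 CPM in WT and 106, 116 and 105 in SIRPα KO. Its lowest SIRPα KO library stood above its highest WT library. The fold was 1.48 (log2 fold change 0.56, SE 0.17, edgeR adjusted p = 0.0731), which did not pass the test.

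Slc25a13, its paralog citrin (chr6:6041218-6217173), was at 1.55, 5.4 and 4.5 CPM in WT and 9.65, 9.29 and 9.18 in SIRPα KO, from 27, 76 and 68 reads and 151, 177 and 148 reads. WT replicate 1 was the lowest of the libraries, and the groups did not overlap. The fold was 2.46 (log2 fold change 1.30, SE 0.44, edgeR adjusted p = 0.0892). Slc25a22, which imports glutamate with a proton, was at 67.4, 59.4 and 50.8 CPM in WT and 73.7, 74.5 and 83.5 in SIRPα KO. These groups were separate too, with a fold of 1.30 (log2 fold change 0.38, SE 0.15, edgeR adjusted p = 0.123). DESeq2 passed Slc25a12 (adjusted p = 0.0200) and Slc25a13 (adjusted p = 0.0301) but not Slc25a22 (adjusted p = 0.0617).

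Among the 37 carriers, Slc25a13 ranked 2, Slc25a12 ranked 8 and Slc25a22 ranked 11 by log2 fold change. The 3 drawn carriers had a median log2 fold change of 0.56, and 0 of them passed edgeR's test, although all 3 had an unadjusted p under 0.05. Of the 36 not drawn, 34 were tested: 19 were higher and 15 lower, with a median of 0.060, and 3 passed. Together the drawn carriers took 3.66%, 4.57% and 3.09% of the family's reads in WT and 5.32%, 5.67% and 5.57% in SIRPα KO.

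Slc25a12 and Slc25a13 encode the same kind of carrier, and Slc25a12 had the higher level, 11.6 ± 2.68 against 1.22 ± 0.645 CPM per kilobase in WT (SD, n = 3). Its normalized count was 42, 17.3 and 14 times that of Slc25a13 in WT and 11, 12.5 and 11.4 times in SIRPα KO. The log2 ratio was lower by 0.90 in SIRPα KO (difference -0.90), and every SIRPα KO library lay below every WT library. The exact two-sided permutation test gave p = 0.1, the smallest that 3 against 3 allows, and 0.3 after adjustment over 6 pairs. WT replicate 1, with 27 reads of Slc25a13, held the largest ratio. Without it the difference was -0.42, and without WT replicate 3 it was -1.21.

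**Figure D3:**
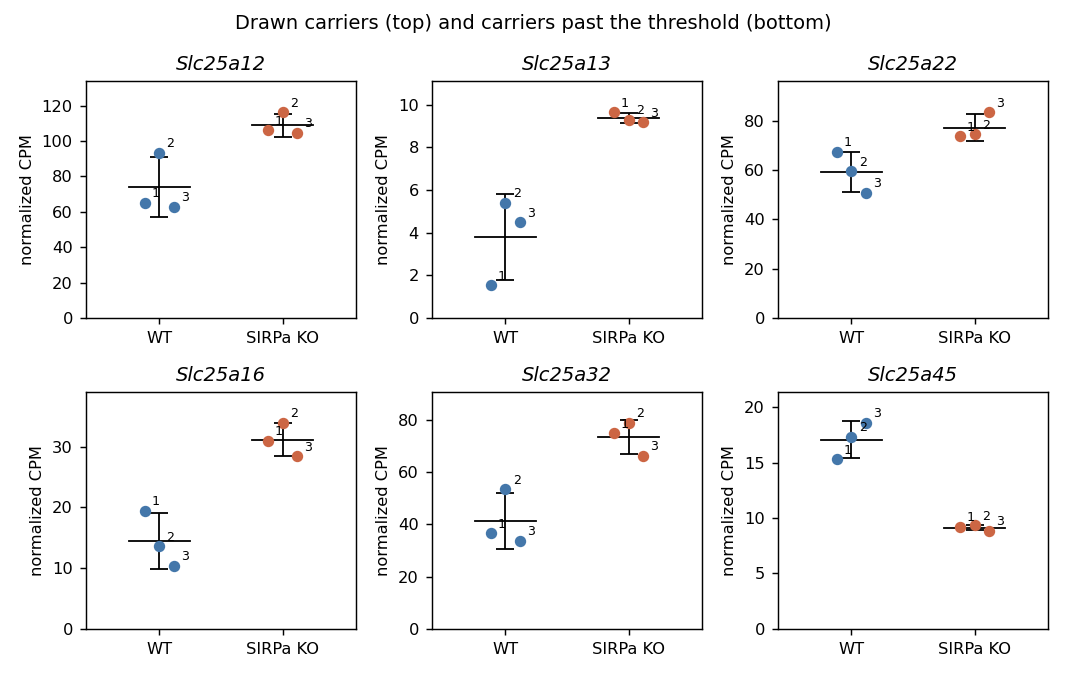
Normalized CPM of the 3 carriers drawn by the study (top) and the 3 past the threshold (bottom) in each library, with the replicate number beside each point, the mean as a line and bars of 1 SD (n = 3). In all 6 panels the WT and SIRPα KO libraries are separate, and only Slc25a45 is lower in SIRPα KO.

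The carriers of cofactors, nucleotides and glutathione held both carriers that edgeR called higher. In this group of 11, 10 had a positive log2 fold change (48.4% of all genes did) and 2 passed the test (18.2%, beside 11.7% of all genes), with a group median of 0.17. Slc25a16, a carrier linked to coenzyme A supply (chr10:62920633-62946498), was at 19.4, 13.7 and 10.4 CPM in WT and 31, 33.9 and 28.5 in SIRPα KO. The groups were far apart relative to their spread, with a fold of 2.15 (log2 fold change 1.10, SE 0.25, edgeR adjusted p = 0.0324). Its span contains the processed pseudogene Gm16128 on the same strand, over 626 bases.

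Slc25a32, which carries folate and flavin adenine dinucleotide (chr15:39091231-39112716), was at 36.7, 53.4 and 33.8 CPM in WT and 75.0, 79.0 and 66.4 in SIRPα KO. It rose 1.78-fold (log2 fold change 0.83, SE 0.20, edgeR adjusted p = 0.0373), with no overlap between the groups. Its longest protein-coding transcript has 5905 bases, and once length and GC content had been corrected for, it stood at a log2 fold change of 0.28 (adjusted p = 0.273). For Slc25a16 the corrected value was 0.79 (adjusted p = 0.0524).

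The other members of this group did not pass edgeR's test. Slc25a40, the paralog of Slc25a39 and like it a glutathione carrier, was at 9.89, 13.5 and 8.21 CPM in WT and 23.4, 22.5 and 14.1 in SIRPα KO (log2 fold change 0.92, SE 0.28, edgeR adjusted p = 0.0707, DESeq2 adjusted p = 0.0183). Slc25a36, a pyrimidine nucleotide carrier, had a log2 fold change of 0.67 (adjusted p = 0.138), and both genes had groups without overlap. Slc25a33, its paralog, was at 0.17, Slc25a51, the carrier of NAD, at 0.25 and Slc25a39 at 0.0024, with adjusted p-values of 0.716, 0.219 and 0.993.

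Slc25a45 was the only carrier that edgeR called lower, and DESeq2 called Slc25a4 lower as well. This member, placed in no substrate group here (chr19:5877808-5885878), was at 15.3, 17.4 and 18.6 CPM in WT and 9.2, 9.34 and 8.87 in SIRPα KO. The SIRPα KO libraries differed from each other by far less than from WT, with a fold of 0.535 (log2 fold change -0.90, SE 0.19, edgeR adjusted p = 0.0288), and the corrected value was -0.87 (adjusted p = 0.0312). By unadjusted p it ranked 1 in the family, followed by Slc25a16 and Slc25a32. Leaving out any 1 SIRPα KO library ended all 3 calls: the adjusted p then ranged from 0.108 to 0.145 for Slc25a16, from 0.110 to 0.159 for Slc25a32 and from 0.123 to 0.136 for Slc25a45. In those fits 16 to 17 genes passed in the whole table (0.112% to 0.12%). Without WT replicates 1, 2 and 3 in turn, 7.89%, 16.3% and 18.4% of all genes passed, and 2, 5 and 4 carriers. The fits with a replicate block and with upper quartile factors called 8.21% and 12.6% of all genes, and 2 and 3 carriers. With libraries of 1 code summed, 2 against 2, 0 carriers passed, and 10 genes did (0.0686%). An unadjusted p under 0.05 was then reached by 7 of 37 carriers, beside 3359 of 14581 genes. In that fit the log2 fold changes of Slc25a16, Slc25a32 and Slc25a45 were 1.2, 0.93 and -0.91, with unadjusted edgeR p-values of 0.00781, 0.00485 and 0.0129.

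ADP/ATP and phosphate carriers had negative log2 fold changes, and 0 of 3 passed edgeR's test, with 1 at an unadjusted p under 0.05. Slc25a4 was at 425, 409 and 499 CPM in WT and 354, 352 and 344 in SIRPα KO, with no overlap (log2 fold change -0.34, SE 0.11, edgeR adjusted p = 0.0750, DESeq2 adjusted p = 0.0420). Slc25a5 and Slc25a3 overlapped between the groups, at log2 fold changes of -0.11 and -0.16 (adjusted p = 0.398 and 0.399). After the length and GC correction Slc25a4 was at -0.20 (adjusted p = 0.136), Slc25a3 at -0.016 (adjusted p = 0.925) and Slc25a5 at 0.16 (adjusted p = 0.333). When the longest transcript of any type set the length, Slc25a3 was at -0.56 (adjusted p = 0.121). The ratio of Slc25a4 to Slc25a5 was 0.317, 0.346 and 0.393 in WT and 0.298, 0.306 and 0.294 in SIRPα KO (difference of the log2 ratios -0.23, exact permutation p = 0.1, adjusted 0.3). Without WT replicate 3 the difference was -0.15. Pseudogenes Gm5529 and Gm5560 match Slc25a5 at 96.8% and 98.3% identity and are counted in the same table, so reads may be split between them. The level of Slc25a5 is therefore uncertain. The same limit holds for Slc25a36, with the counted copy Gm13217 (99.6% over 544 bases), and Slc25a37, with Gm16867 (100% over 251 bases). Slc25a40 matches the pseudogene Gm5066 at 96.3%, which is not among the genes counted.

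Carriers of di- and tricarboxylates and the calcium-regulated ATP-Mg/phosphate carriers gave 0 calls in edgeR and in DESeq2, with 1 carrier of each group at an unadjusted p under 0.05. In the first group Slc25a11 was at 144, 143 and 167 CPM in WT and 121, 132 and 121 in SIRPα KO, without overlap (log2 fold change -0.28, SE 0.12, edgeR adjusted p = 0.147). After the correction it was at 0.00088. Slc25a23, a calcium-regulated member, was at 9.55, 8.32 and 11.9 CPM in WT and 3.77, 6.72 and 6.45 in SIRPα KO (log2 fold change -0.81, SE 0.31, edgeR adjusted p = 0.119). Its paralogs Slc25a24 and Slc25a25 were at -0.07 and 0.14, and the ratio between these paralogs overlapped between the groups (exact permutation p = 0.5).

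Of the other amino acid carriers, 3 of 4 had a positive log2 fold change and 0 passed edgeR's test, with 1 at an unadjusted p under 0.05. Slc25a15, the ornithine carrier of the urea cycle, was at 14.5, 16.1 and 7.08 CPM in WT and 23.6, 24.9 and 19.7 in SIRPα KO (log2 fold change 0.86, SE 0.31, edgeR adjusted p = 0.105, DESeq2 adjusted p = 0.0409). Slc25a29, a carrier of basic amino acids, had a fitted value of 1.54 with an SE of 1.0 (edgeR adjusted p = 0.320). It rested on 36, 19 and 0 reads in WT and 41, 95 and 39 in SIRPα KO. Leaving out WT replicate 3 gave 0.97, leaving out replicate 2 of SIRPα KO 1.14, and leaving out WT replicate 1 gave 2.31.

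The mitoferrins, which import iron, went in opposite directions without passing: Slc25a37 had a log2 fold change of 0.43 (edgeR adjusted p = 0.260) and Slc25a28 of -0.32 (edgeR adjusted p = 0.255). Their transcripts have 4174 and 1535 bases, and after the length and GC correction both were positive, at 0.12 and 0.20 (adjusted p = 0.800 and 0.506). With the longest transcript of any type they were at 0.024 and -0.39. The paralog ratios carry no correction for length. The ratio of their normalized counts, Slc25a28 to Slc25a37, was 3.75, 2.13 and 2.93 in WT and 1.45, 1.45 and 2.53 in SIRPα KO (exact permutation p = 0.2, adjusted 0.3). The ratio of Slc25a39 to Slc25a40 was 13.1, 7.99 and 18.2 in WT and 5.74, 5.39 and 9.42 in SIRPα KO (exact permutation p = 0.2, adjusted 0.3), and these ranges overlapped. Slc25a33 to Slc25a36 gave an exact permutation p of 0.5. Slc25a35, with no assigned substrate, was at -0.51 (edgeR adjusted p = 0.435), and it shares sequence with the overlapping gene Rangrf. Slc25a27 had 0, 7 and 34 reads in WT and 3, 5 and 9 in SIRPα KO, and Slc25a43 had 7, 1 and 0 and 6, 21 and 14. The remaining 13 tested members, among them the carnitine carrier Slc25a20, the uncoupling-type Slc25a14 and Slc25a30 and the outer membrane protein Slc25a46, lay between -0.82 for Slc25a47, which had 0 to 29 reads, and 0.42 for Slc25a53. Their edgeR adjusted p-values ran from 0.168 for Slc25a38 to 0.975 for Slc25a1, and 0 of them had an unadjusted p under 0.05.

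**Figure D4:**
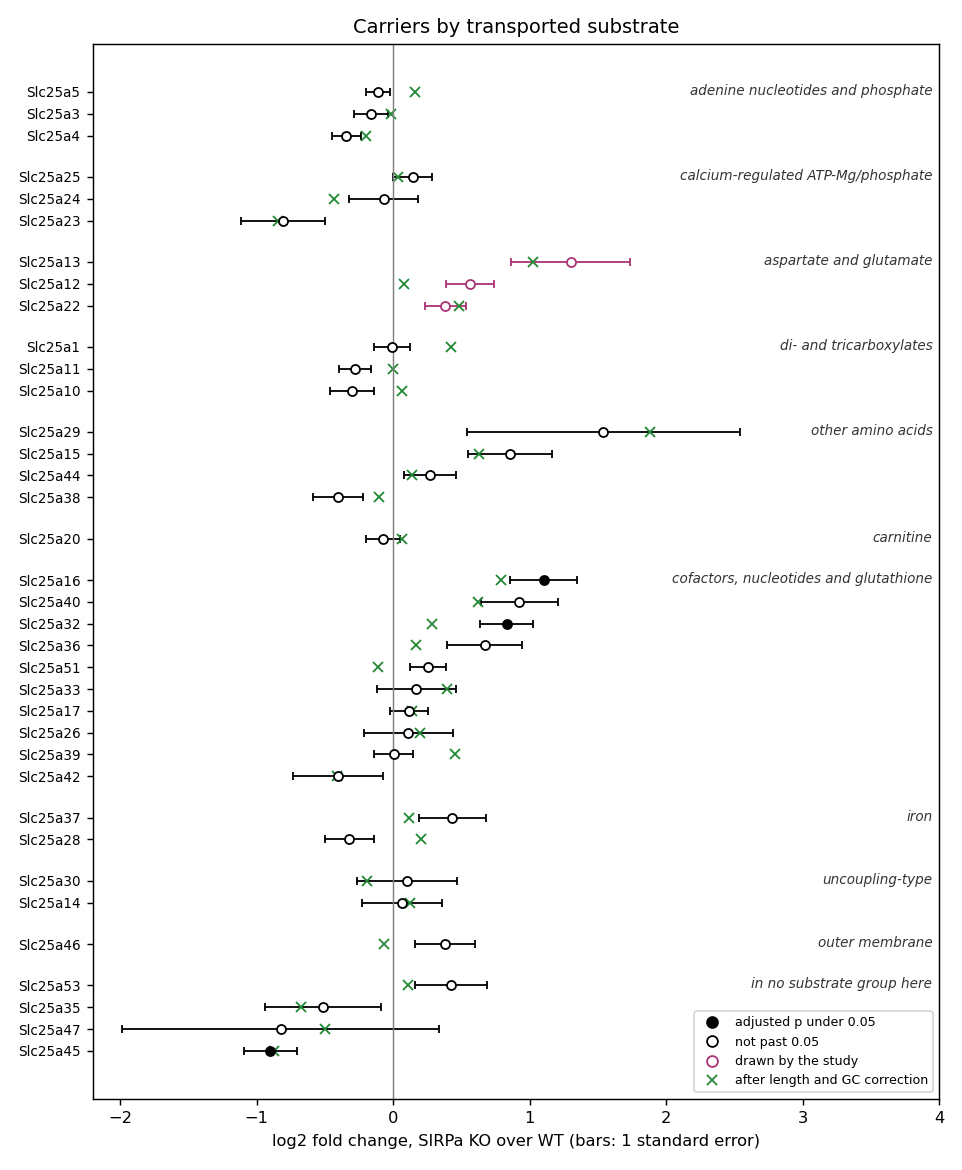
Log2 fold change of SIRPα KO over WT for 36 of the 37 tested carriers, by transported substrate, with bars of 1 SE. Filled points mark an adjusted p under 0.05, purple the carriers drawn by the study and green crosses the value after correction for transcript length and GC content; all 3 aspartate and glutamate carriers lie above 0, the 3 ADP/ATP and phosphate carriers below it before the correction, and the cross of Slc25a12 falls to 0.08.

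The log2 fold change followed transcript length. Spearman's rho between them was 0.434 over the 37 carriers and 0.545 over the 9127 genes whose log2 CPM averaged 3 or more, genes that share libraries and are not independent replicates. Among the 18 carriers with transcripts shorter than the family median of 2784 bases, 7 were higher (median log2 fold change -0.09), whereas 15 of the 19 longer ones were (median 0.38). The drawn carriers had transcripts of 2811 to 6351 bases. Of the 15 carriers not drawn that were at least as long as the shortest of these, 11 were higher, with a median of 0.27, and in 7 of them the SIRPα KO libraries all lay above those of WT. The same held for 33.2% of all genes with transcripts of that length or longer.

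With an offset for transcript length and GC content, the rho over the carriers was -0.17, and 13 of the 18 short and 12 of the 19 long carriers were higher. The drawn carriers were then at 0.08 for Slc25a12 (adjusted p = 0.769), 1.02 for Slc25a13 (adjusted p = 0.198) and 0.49 for Slc25a22 (adjusted p = 0.0442). In that fit 3 carriers were called higher and 1 lower, beside 4.09% and 4.28% of all genes. The 3 higher were Slc25a22, Slc25a39 (0.46, adjusted p = 0.0260) and Slc25a1, the citrate carrier (0.43, adjusted p = 0.0454), named after its value was seen. When the longest transcript of any type set the length, Slc25a22 no longer passed (0.25, adjusted p = 0.188), and Slc25a16 did (0.86, adjusted p = 0.0452).

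**Figure D5:**
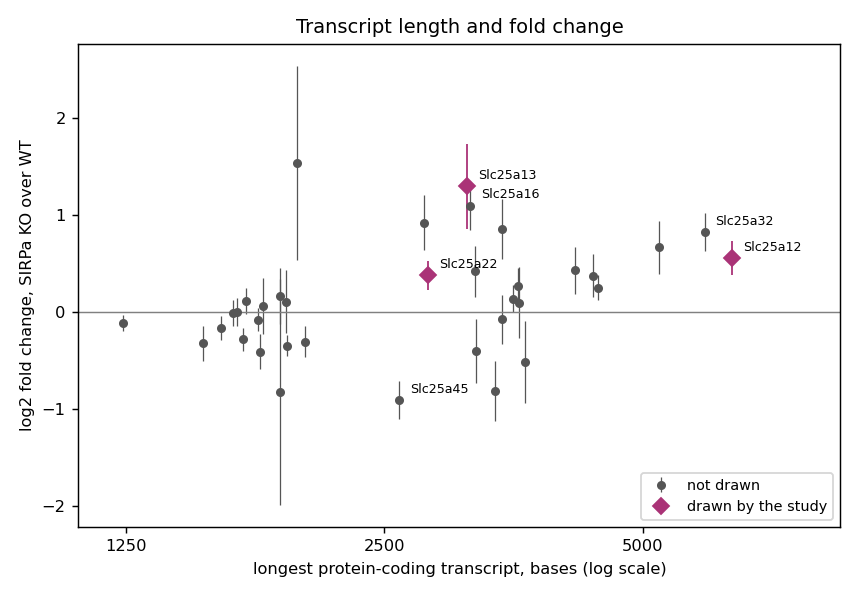
Log2 fold change of SIRPα KO over WT against the length of the longest protein-coding transcript in bases (log axis) for 36 of the 37 tested carriers, with bars of 1 SE and the drawn carriers as purple diamonds. Most short carriers lie around or below 0, although Slc25a29 (1976 bases, log2 fold change 1.54) is the highest point. Most carriers longer than the median of 2784 bases lie above 0.

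Genes that work with the carriers were counted from lists of import factors, shuttle enzymes, related carriers, other inner membrane transporters and outer membrane channels. Of 34 tested, 13 were higher and 21 lower, 1 rose and 5 fell in edgeR's test (17.6%, beside 11.7% of all genes). Without any 1 SIRPα KO library, or with libraries of 1 code summed, 0 of them passed, with 9 to 13 of 34 to 35 at an unadjusted p under 0.05. Over all genes that p was reached by 2991 of 14242, 2935 of 14146 and 3183 of 14141 without SIRPα KO replicates 1, 2 and 3. With summed codes 3359 of 14581 genes reached it. Tomm70a, the import receptor for carrier precursors, was at 158, 151 and 112 CPM in WT and 319, 286 and 279 in SIRPα KO (log2 fold change 1.07, SE 0.15, edgeR adjusted p = 0.0127). After the correction it was at 0.51 (adjusted p = 0.0233). Timm22, the channel that inserts carriers into the inner membrane, fell from 75.8 ± 13.9 to 48.7 ± 2.84 CPM (SD, n = 3, log2 fold change -0.64, edgeR adjusted p = 0.0445). Timm10b, a small Tim chaperone, fell as well (-0.71, edgeR adjusted p = 0.0497). The corrected values were -0.79 for Timm22 (adjusted p = 0.0428) and -0.99 for Timm10b (adjusted p = 0.0505), which no longer passed, although it did with the length of any transcript type (-0.91, adjusted p = 0.0498).

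Among the other inner membrane transporters, the subunits of the pyruvate carrier fell, Mpc1 with a log2 fold change of -0.50 (edgeR adjusted p = 0.0484) and Mpc2 with -0.89 (edgeR adjusted p = 0.0211). Smdt1, a subunit of the calcium uniporter, fell too (-0.81, edgeR adjusted p = 0.0296). After the correction for length and GC content these values were -0.13, -0.39 and -0.04, and none of the 3 passed (adjusted p = 0.308, 0.0615 and 0.791). When the longest transcript of any type set the length, Mpc2 passed (-1.30, adjusted p = 0.0215), while Mpc1 (-0.12) and Smdt1 (-0.20) did not. Of the malate-aspartate shuttle enzymes that act with Slc25a12 and Slc25a13, Got1 was at 0.45 (edgeR adjusted p = 0.0546), Mdh1 at -0.34 (0.0747), Mdh2 at -0.14 (0.419) and Got2 at 0.01 (0.949), so 0 of 4 passed, with 2 at an unadjusted p under 0.05. DESeq2, which called 25.1% of the genes to which it gave an adjusted p, passed Got1 (adjusted p = 0.00961) and Mdh1 (adjusted p = 0.0315). In the corrected fit 3 of 4 passed, in mixed directions, beside 8.37% of all genes. These were Got1 at 0.56 (adjusted p = 0.0330), Mdh1 at -0.43 (adjusted p = 0.0330) and Mdh2, whose sign had turned, at 0.26 (adjusted p = 0.0453). With the length of any transcript type, where 8.81% of all genes passed, Got1 (0.63) and Mdh1 (-0.35) passed and Mdh2 (0.13, adjusted p = 0.261) did not. With the replicate block added to the correction, 0 of the 34 companion genes passed, beside 2.71% of all genes.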

How the data were processed

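Estimated counts per gene, unscaled for library size, were deposited by the authors after alignment to mm10 with annotation from GENCODE M21. The submitters' processing notes name Partek 10.0, STAR 2.7.8 and DESeq2. A low-input kit turned 10 pg of RNA into cDNA. Whether strand was used and how reads of repeated genes were counted is not given in the sources used here. Members and gene lists were chosen with earlier results of these data known. Of the gene columns, 110 are recorded by name and 17721 enter the fit unlisted.

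Counts were rounded, filtered with filterByExpr (10 reads in a library of median size, 15 in total), TMM-scaled and compared by edgeR's quasi-likelihood test on genotype over 3 against 3 libraries, with Benjamini-Hochberg adjustment over 13623 genes. The SE was derived from its F statistic. Tools were edgeR 4.0.16, limma 3.58.1 and DESeq2 1.42.0 in R 4.3.3, scipy 1.17.1 and BLAST+ 2.17.0. Genes without an adjusted p from DESeq2 were left out of its counts. The procedure was tested on simulated data. Length is that of the longest protein-coding transcript, a definition chosen after seeing the data. The correction used a spline with 5 degrees of freedom on length and on GC content. Copies needed 95% identity.

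Genes were named by a rule: the drawn carriers, those past an adjusted p of 0.05, the 6 with the highest WT level, paralog pairs, the 3 largest changes each way at a mean log2 CPM of 1 or more, those failing the filter, and companion genes that passed. 1 carrier that the rule names is not reported here, though it enters the counts. Others were named after their values were seen. Alternatives were DESeq2, other scalings and filters, a replicate block, summed codes, left-out libraries and the correction.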

Additional observations from a re-analysis of the deposited data

How the results depend on the processing

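Beside 2 carriers higher and 1 lower, DESeq2 called 6 and 2, summed codes 0 and 0, the replicate block 2 and 0, and the block with the length and GC correction 0 and 0. Leaving out a library gave 0 to 4 higher and 0 to 2 lower. For the companion genes (1 higher, 5 lower), higher calls were 3 with DESeq2 and with the correction under either transcript length, 0 with summed codes and with the block plus correction, and 0 to 4 without a library. Lower calls were 9 with DESeq2, 3 with RLE factors, and 2 without a filter, with the block and with the correction. They were 5 with the correction under any transcript type, 0 with summed codes and with the block plus correction, and 0 to 9 without a library. The share of all genes called also moved, from 11.7% in edgeR's test to 25.1% with DESeq2, 11.8% with RLE factors, 6.46% without a filter and 8.21% with the block. It was 8.37% with the correction (8.81% with any transcript type), 2.71% with the block plus correction and 0.0686% with summed codes. Without a library it ran from 0.112% to 18.4%.

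The family median was 0.0037 with upper quartile factors (all genes then had a median of -0.13, against -0.025), and 0.021 to 0.15 without a library. The drawn median was 0.25 with the length of any transcript type and 0.47 to 0.76 without a library. The median of carriers not drawn (0.060) became -0.050 with upper quartile factors, 0.11 with the correction and 0.11 with the block added, and -0.022 to 0.13 without a library. It was negative without WT replicate 2. The difference in the log2 ratio of Slc25a33 to Slc25a36, SIRPα KO minus WT, was -0.95 to 0.038 without a library. For Slc25a24 to Slc25a25 this difference was -0.41 to -0.034, for Slc25a28 to Slc25a37 -0.98 to -0.52 and for Slc25a39 to Slc25a40 -1.22 to -0.63.

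Among carriers without a call in edgeR, these signs turned. With the correction Slc25a5 became 0.16 (0.18 with any transcript type, 0.16 with the block), Slc25a11 0.00088 (0.046 with any type), Slc25a28 0.20 (0.22 with the block) and Slc25a51 -0.11 (-0.056 and -0.10). The correction also turned Slc25a1 to 0.43, which was then called, as Slc25a39 was, Slc25a10 to 0.065, Slc25a20 to 0.063, Slc25a30 to -0.19 and Slc25a46 to -0.068. With any type Slc25a25 became -0.077. Slc25a39 became -0.11 with upper quartile factors, -0.014 with the stricter filter and -0.039 with summed codes, and was -0.11 to 0.13 without a library. Slc25a24 became 0.090 with summed codes and was -0.21 to 0.13 without a library, and Slc25a33 was -0.013 to 0.51. The cause was not tested. The length of any transcript type was chosen after seeing the data.

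The replicate block left 1118 genes called beside 1600. Numbers of the titles did not pair the libraries: the correlation of same-numbered deviations was -0.139, 0.183 and 0.0307. Depth limits Slc25a13, Slc25a29, Slc25a47, Slc25a27 and Slc25a43, which rest on few reads. Pairs with Slc25a2, Slc25a18 or Slc25a52 gave no ratio, as these genes were not analysed here.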
